A study of Mus musculus with 22 samples.

Results

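The 3 erythroid miRNAs miR-451, miR-144 and miR-486 were followed across 22 mouse samples, as the rows of the panel with the names mmu-miR-451, mmu-miR-144 and mmu-miR-486. They are 3 of the 566 mouse miRNA probes of the NanoString nCounter miRNA assay, in which every miRNA is tagged with its own fluorescent barcode and the barcodes are counted without amplification. The samples came from a mouse model of fallopian tube cancer in which the Pax8 promoter and doxycycline together switch on a Cre that recombines floxed alleles in tubal epithelium. They were 5 uninduced control tubes (CT), 5 tubes from doxycycline-induced mice (FT), 5 metastatic tumors (M), 3 plasma samples from control mice (CS) and 4 from induced mice (TS).

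The control mice carried the same kinds of floxed alleles without induction. Whether they also carried the Cre is not stated in the sources used here. CT1 and CT3 were Brca1 fl/fl, CT2 was Brca1 fl/+, CT4 was Brca2 fl/fl and CT5 was Brca2 fl/+. FT2 was Brca1 -/-, FT4 was Brca2 -/-, and FT1, FT3 and FT5 were Brca2 -/+. Among the tumors, M1 and M3 were Brca2 -/-, M2 and M6 were Brca1 -/+, and M4 was Brca2 -/+. M6 was an ovarian tumor. Genotype therefore varied within CT, FT and M, and no genotype was tested. The groups differ in their mix of Brca genotypes as well as in induction. Tube and plasma of 1 mouse were both present for 7 mice: FT2 with TS1, FT3 with TS2, FT4 with TS3, FT5 with TS4, CT2 with CS2, CT3 with CS3 and CT4 with CS4. The labels name the source of the TS samples both as serum and as plasma, and plasma is used here. Ages are not given in the sources used here.

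miR-144 and miR-451 are cut from a single primary transcript that GATA1 switches on as red cells mature, and both are abundant in mature red cells, which keep their miRNAs after losing the nucleus. miR-451 is known for its unusual making: its hairpin is too short for Dicer and is cut by Argonaute 2. miR-486 lies within an intron of the ankyrin gene Ank1 and is abundant in red cells and in striated muscle. Because red cells carry all 3, they are watched in blood samples as signs of hemolysis, and in tissues they come in with the blood that the vessels hold.

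The sequences show that miR-451 and miR-144 are neighbors that share no seed, so that they are separate measurements of 1 transcript. In RefSeq's mouse annotation (GRCm38.p6) both lie on the plus strand of chromosome 11, with miR-451a at chr11:78073186-78073207 and miR-144-3p at chr11:78073047-78073066. Their seeds, bases 2 to 8, are in capitals here.
mmu-miR-451: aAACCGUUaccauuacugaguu
mmu-miR-144: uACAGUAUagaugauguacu
The seeds differ at 5 of 7 positions, and 0 of the other mature miRNAs in the table of 1738 carry either one. miR-451 is 22 bases long with 8 G or C, and miR-144 is 20 bases long with 6.

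The hairpins are shown for the place of the mature miRNA, here in capitals, within each.
Mir451a: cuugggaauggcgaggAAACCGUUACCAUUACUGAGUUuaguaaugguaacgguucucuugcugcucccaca
Mir144: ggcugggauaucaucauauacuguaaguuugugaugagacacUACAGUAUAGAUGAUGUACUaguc
The Mir451a hairpin, at chr11:78073170-78073241, is 72 bases long, and its mature miRNA takes bases 17 to 38 and runs into the loop. The Mir144 hairpin, at chr11:78073005-78073070, is 66 bases long, and the mature miRNA takes bases 43 to 62, on the 3′ arm. The 2 hairpins lie 99 bases apart. miR-144 and miR-451 on this panel carry older names, and were matched to miR-144-3p and miR-451a.

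Tissue samples held between 70164 and 598321 counts on miRNAs, and plasma samples between 18350 and 269005. A detection level was set for each sample at the mean plus 2 SD of its 8 negative hybridization controls, and it was 18.3 to 67.7 counts for tissue samples and 25.0 to 48.4 for plasma. The probes other than mouse miRNAs, which include housekeeping mRNAs, took 11.8% to 49.7% of the counts in tissue and 19.7% to 84.5% in plasma, with the most in CS3 and CS2. Counts per sample are given as deposited. Group means are of normalized counts, scaled to a geometric mean over abundant miRNAs, separately for tissue and for plasma, so levels are not compared across them. The labels do not state that the samples of a group came from separate mice. The paper's sample table gives CT1 to CT5 different genotypes and ties FT2 to FT5 each to its own plasma sample. For the tumors it does not settle this. p-values measure only the spread between the samples of a group, which may in part be technical.

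miR-451, the most abundant of the 3, was above detection in all 22 samples. In CT its counts were 78, 188, 158, 250 and 242. In FT they were 625, 69, 1015, 94 and 411. In M they were 86 in M1, 944 in M2, 910 in M3, 76 in M4 and 1884 in M6. On these counts as deposited, FT2, FT4, M1 and M4 sat within or below the CT range, and the other induced samples sat above it. Depth differs between samples. After normalization FT1 at 218.1 and FT5 at 224.0 also lay within the CT range, 85.2 to 566.9. In plasma the control samples CS2 to CS4 held 9162, 3206 and 25956 counts, and the induced ones 33918, 13046, 5316 and 9586 from TS1 to TS4. Among the 566 miRNAs of its own sample miR-451 ranked between 1 and 5 in plasma and between 17 and 97 in tissue.

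miR-144, its neighbor on the transcript, was near background in tissue. Its counts in CT were 13, 21, 18, 30 and 35, and 0 of the 5 CT samples were above detection. In FT the counts were 51, 6, 56, 26 and 29, and FT1 and FT3 alone were above detection. In M they were 5, 29, 23, 13 and 65, with M2, M3 and M6 above detection. Levels of miR-144 in CT are therefore upper bounds. In plasma it counted 1138, 322 and 2923 in CS2 to CS4 and 369, 835, 28 and 1028 in TS1 to TS4. TS3, with 28 counts, was the 1 plasma sample in which miR-144 was not above detection, in a sample with 5316 counts of miR-451.

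miR-486 was also near background in control tubes, with 12, 37, 24, 26 and 11 counts and 0 of 5 samples above detection. In FT it counted 119, 86, 94, 36 and 61, and in M 153, 120, 105, 59 and 120, and all 10 of these samples were above detection. FT4 had the lowest count as deposited of the FT samples and M4 the lowest of the tumors. After normalization the lowest were FT5 at 33.2 and M6 at 81.9. In plasma the counts were 715, 327 and 2043 in CS2 to CS4 and 3324, 873, 1588 and 668 in TS1 to TS4. TS3 was thus low in miR-144 and not in miR-486.

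**Figure D1:**
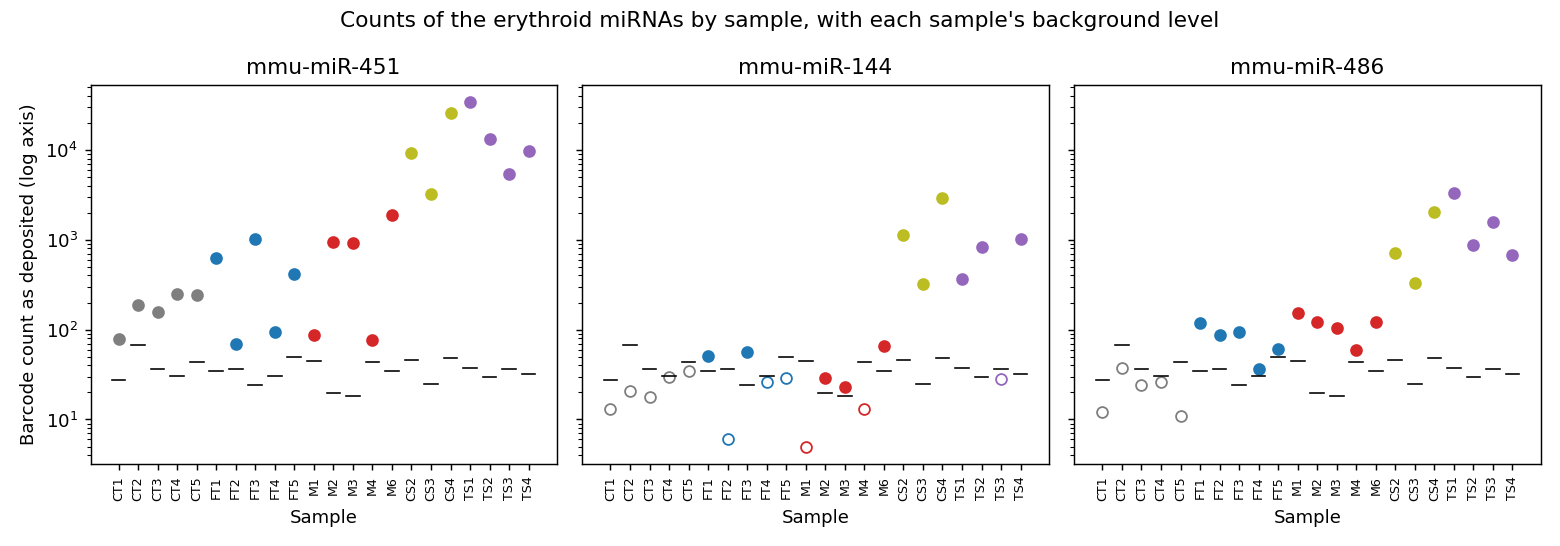
Barcode counts as deposited (log axis) of miR-451, miR-144 and miR-486 in each of the 22 samples, colored by group (grey CT, blue FT, red M, olive CS, purple TS). Short black lines mark the detection level of each sample and open circles mark counts not above it, which are 0 for miR-451, all 5 CT samples for miR-144 and for miR-486, FT2, FT4, FT5, M1 and M4 for miR-144, and TS3 with 28 counts of miR-144 as the single open circle in plasma.

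The first comparison asks what changed in the tube after induction. miR-486 had the largest fold change of the 3 members in FT against CT. Its normalized count was 110.6 ± 85.9 (SD, n = 5) in FT, against 21.2 ± 5.14 (SD, n = 5) in the controls, and the 5 FT samples all lay above the 5 CT samples. The edgeR quasi-likelihood test gave a log2 fold change of 2.36 ± 0.56 (SE) with an adjusted p of 0.0754 over all 566 miRNAs, so it did not pass the threshold of 0.05. The exact permutation test of this miRNA alone gave p = 0.00794, the smallest that 5 samples against 5 allow. Of all miRNAs, 0.177% passed in edgeR and 0.53% did not overlap between FT and CT, against 0 and 1 of the 3 members. Under other settings the call changed: the adjusted p was 0.0336 with TMM scaling, 3.29e-05 with DESeq2 and 0.00789 after subtraction of the negative controls, and it also passed without FT1 (0.0298), FT3 (0.0445) or FT5 (0.0111). Since the CT counts are at background, the fold change depends on how background is treated.

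miR-451 was 597.2 ± 892.7 (SD, n = 5) in FT, against 223.5 ± 195.6 (SD, n = 5) in the controls. The groups overlapped, with FT2 at 163.4 and CT5 at 566.9, and FT3 stood apart at 2194. The edgeR log2 fold change was 1.42 ± 0.73 (SE, adjusted p = 0.688), and without FT3 it was -0.17 (adjusted p = 0.931). miR-144 was 44.1 ± 45.7 (SD, n = 5) in FT, against 30.02 ± 29.3 (SD, n = 5) in the controls, with a log2 fold change of 0.58 ± 0.62 (SE, edgeR adjusted p = 0.759). FT3 again decided its direction, since without it the value was -0.23. miR-122, the miRNA of hepatocytes, was the 1 miRNA that passed in FT against CT. It averaged 303.6 ± 542.9 (SD, n = 5) in FT, with 11.4 ± 2.80 (SD, n = 5) in the controls, a log2 fold change of 4.74 ± 0.95 (SE, edgeR adjusted p = 0.0201), and its groups did not overlap. FT3 had the highest summed level of the 3 liver miRNAs (miR-122, miR-192 and miR-194) in FT, at 1342, with a median of 104.2 over FT and a range of 66.2 to 93.7 over CT. miR-192 and miR-194 did not pass in FT against CT (log2 fold changes of 0.14 and -0.37). In plasma, scaled apart from tissue, miR-122 was also abundant. It averaged 33656.5 ± 4427 (SD, n = 3) in CS and 74610.5 ± 27428 (SD, n = 4) in TS. The source of miR-122 in the tubes, and its bearing on the FT3 values and on miR-486 in FT, were not tested. These are bulk samples, in which more cells of a type and more RNA per cell cannot be told apart.

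The second comparison is of metastatic tumors with control tubes, in which 14.5% of all miRNAs passed in edgeR and 12.5% did not overlap between the groups. 1 of the 3 members, miR-486, passed both. miR-486 rose to 207 ± 138.4 (SD, n = 5) in M from 21.2 ± 5.14 (SD, n = 5) in CT. The log2 fold change was 3.27 ± 0.51 (SE, edgeR adjusted p = 0.000254), and all 5 tumors lay above all 5 controls, with the lowest tumor, M6, at 81.9 and the highest control, CT5, at 25.8. Over all the alternatives and left-out samples the log2 fold change lay between 2.87 and 5.45 and its adjusted p between 2.42e-13 and 0.0236.

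miR-451 averaged 1017 ± 952.1 (SD, n = 5) in M, with M1 at 230.1 and M4 at 183.7, both below CT5, and M3 at 2507. Its log2 fold change was 2.19 ± 0.72 (SE), and its edgeR adjusted p of 0.05004 fell just short of the threshold of 0.05. The call turned on small changes: it passed with TMM scaling (adjusted p = 0.0292) and DESeq2 (0.00476) and without CT5, M1 or M4 (0.0187, 0.0259 and 0.0162), and did not pass when the 3 tissue groups were fitted together (0.116) or without M3 (log2 fold change 1.54, adjusted p = 0.155). miR-144 was 35.9 ± 18.9 (SD, n = 5) in M, and its log2 fold change of 0.35 ± 0.54 (SE, edgeR adjusted p = 0.673) was smaller than its spread. miR-144 lay at background in CT, so a fold change of it against CT is bounded by that background.

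Between M and FT, 1.59% of all miRNAs passed in edgeR, 1.41% did not overlap, and 0 of the 3 members did either. The study had tube and tumor from the same animal in 2 mice, which the sources used here do not name, so samples were tested as independent though some may share a mouse. The log2 fold change was 0.77 ± 0.91 (SE) for miR-451, -0.27 ± 0.65 for miR-144 and 0.91 ± 0.73 for miR-486, each with an edgeR adjusted p of 0.993. Without FT3 the value of miR-451 was 2.36 and that of miR-144 was 0.55, both still short of the threshold.

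In plasma the question is whether circulating levels differ between induced and control mice. In edgeR 0 miRNAs passed in TS against CS (0% of all), with 42 at an unadjusted p under 0.05 and 12 called by DESeq2, and 5.3% did not overlap between the groups, among them 1 of the 3 members, miR-144. miR-144 was 498.4 ± 350 (SD, n = 4) in TS and 2402 ± 1201 (SD, n = 3) in CS, and the highest TS sample, TS2 at 908.3, lay below the lowest CS sample, CS4 at 1212. The log2 fold change was -2.27 ± 0.79 (SE, edgeR adjusted p = 0.542), and the exact permutation test gave p = 0.0571, where 4 samples against 3 allow no p below 0.0286. miR-451, by contrast, was 18949 ± 18909 (SD, n = 4) in TS and 21182 ± 9420 (SD, n = 3) in CS, a log2 fold change of -0.16 ± 0.71 (SE, edgeR adjusted p = 0.901). miR-486 was 2213 ± 1940 (SD, n = 4) in TS and 1845 ± 866.9 (SD, n = 3) in CS, a log2 fold change of 0.26 ± 0.77 (SE, edgeR adjusted p = 0.851).

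The scaling sets where 0 lies, and most of all in plasma. With the scaling used here the median log2 fold change of all 566 miRNAs in TS against CS was -0.89, and with TMM it was -0.05. In M against CT these medians were 0.29 and 0.18, and in M against FT 0.10 and -0.09. Of the 566 miRNAs, 52 to 128 were above detection in a plasma sample and 94 to 208 in a tissue sample. These medians are therefore largely of miRNAs at background. In plasma miR-144 lay below the median of -0.89, and miR-451 and miR-486 lay above it. With TMM the log2 fold changes were -1.18 for miR-144, 0.68 for miR-451 and 0.997 for miR-486, so the direction for miR-451 flipped.

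**Figure D2:**
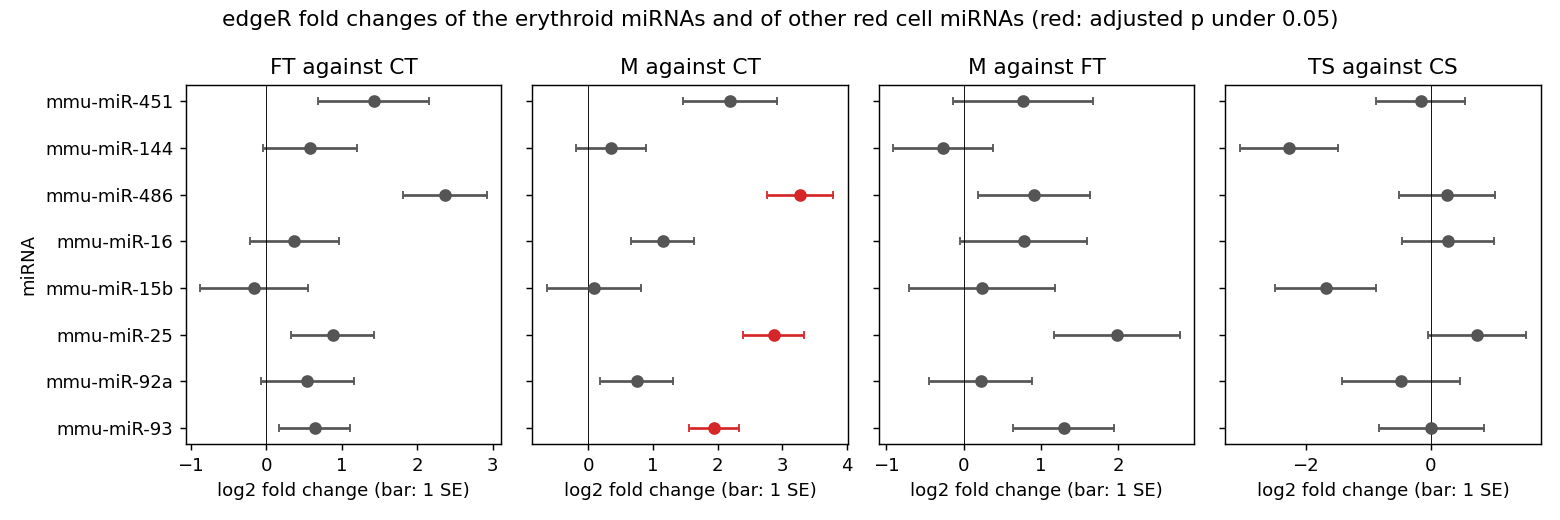
edgeR log2 fold changes (x axis, bars of 1 SE) of the 3 members and of 5 other miRNAs abundant in red cells (y axis) in the 4 comparisons, with red for an adjusted p under 0.05. In M against CT, miR-486 at 3.27, miR-25 at 2.86 and miR-93 at 1.94 are red, and the other 3 panels hold none.

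Other miRNAs that red cells carry in quantity were followed as a list of 5: miR-16 and miR-15b, and miR-25, miR-93 and miR-92a of the miR-17 family of clusters. In FT against CT 0 of 5 passed, with a median log2 fold change of 0.55 against 0.15 over all miRNAs. In M against CT 2 of 5 were higher, miR-25 (log2 fold change 2.86 ± 0.48 SE, edgeR adjusted p = 0.000496) and miR-93 (1.94 ± 0.39 SE, edgeR adjusted p = 0.00226), with a list median of 1.15 against 0.29 over all miRNAs. Of all miRNAs 14.5% passed in this comparison, 58 of the 566 as higher. miR-16, the most abundant of them, did not pass (1.15 ± 0.49 SE, edgeR adjusted p = 0.138). In TS against CS 0 of 5 passed, with a list median of 0.01 against -0.89 over all miRNAs. The summed normalized count of the list was 3891 to 5911 in CT, 3266 to 9492 in FT and 5326 to 18433 in M, and in plasma 6209 to 12918 in CS and 2835 to 18088 in TS. miR-25 and miR-93 are also made by dividing cells of many kinds, and miR-92a was at 3 to 26 counts in tissue and plasma.

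miRNAs that fall as red cells mature (miR-221, miR-222, miR-223, miR-155 and miR-24) form a list that tells precursors from mature cells. In FT against CT 0 of 5 passed. In M against CT 1 of 5 was higher, miR-223, a miRNA of neutrophils and monocytes, at 3.59 ± 0.71 (SE, edgeR adjusted p = 0.00205). It was also the 1 of 5 leukocyte miRNAs that passed there, and the summed level of that list was 593 to 1164 in CT and 966.7 to 6301 in M. A count of 1 in 5 is near the 14.5% of all miRNAs that passed.

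Since miR-486 is also a miRNA of striated muscle, the muscle markers miR-1, miR-133a, miR-133b and miR-206 were set beside it. In M against CT, where miR-486 rose, 0 of these 4 rose and miR-1 fell (log2 fold change -2.43 ± 0.78 SE, edgeR adjusted p = 0.045). Their summed level was 382.4 to 552.4 in CT and 88.5 to 384.3 in M, with M4 within the control range, and most of the sum was miR-1. The log2 fold change was -0.64 for miR-133a, -0.48 for miR-133b and 0.14 for miR-206, and these did not pass. In M 0 of 5 samples were above detection for miR-133a and for miR-133b, and 2 of 5 for miR-206. These 3 fold changes are therefore limited by background. In FT the sum was 329.2 to 1056, and 0 of 4 passed in FT against CT. The smooth muscle miRNAs miR-143 and miR-145 also fell in M, both of them, as did all 4 miRNAs of ciliated cells (both arms of miR-34b, miR-34c and miR-449a), so tumors and control tubes differ in more cell types than 1. miR-126-3p, of endothelium, was higher in M (1.66 on the log2 scale). The other arm, miR-126-5p, went the other way (-0.83 ± 0.50 SE, edgeR adjusted p = 0.274) and did not pass. miR-122, of hepatocytes and also abundant in these plasma samples, was higher in M too (2.62 ± 0.48 SE, edgeR adjusted p = 0.00119), with no overlap between the groups. Among the 5 epithelial miRNAs 1, miR-141, was lower (-2.22 ± 0.64 SE, edgeR adjusted p = 0.0257). The summed endothelial level, most of it miR-126-3p, was 4224 to 6683 in CT, 3205 to 55041 in FT and 7887 to 19897 in M. The part of these cell types in the miR-486 result was not tested.

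Ratios of the members within a sample need no scaling between samples, and they bear on whether 1 source supplies all 3, since a single source adds its miRNAs in a fixed ratio. Ratios are given as log2, and 16 of them were tested with two-sided exact permutation tests and adjusted together. 0 of the 16 passed after adjustment.

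miR-144 over miR-451, the ratio of the shared transcript, was nearly constant in control plasma, at -3.01, -3.32 and -3.15 in CS2, CS3 and CS4, or 1 miR-144 count to between 8.05 and 9.96 miR-451 counts. In TS it was -6.52, -3.97, -7.57 and -3.22, so TS4 lay within the CS range, TS2 a little below it, and TS1 and TS3 far below. TS1 came from a Brca1 -/- mouse and TS3 from a Brca2 -/- mouse, while TS2 and TS4 came from Brca2 -/+ mice. The part of genotype in this split was not tested. In TS3 there were 189.9 miR-451 counts for each miR-144 count. The mean was -5.32 ± 2.06 (SD, n = 4) in TS and -3.16 ± 0.15 (SD, n = 3) in CS, a difference of -2.16 (exact p = 0.2, adjusted p = 0.4).

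In tissue the same ratio was -2.95 ± 0.25 (SD, n = 5) in CT, where miR-144 was not above detection, so that a floor of background counts enters it. FT samples averaged -3.40 ± 0.90 (SD, n = 5), and M samples -4.37 ± 1.11 (SD, n = 5). In the 5 tissue samples with miR-144 above detection, where the ratio is best measured, it was -3.62 in FT1, -4.18 in FT3, -5.02 in M2, -5.31 in M3 and -4.86 in M6. All 5 of these lay below the control plasma values. M against CT differed by -1.42 (exact p = 0.0476, adjusted p = 0.19), and after subtraction of the negative controls by -0.27 (adjusted p = 0.889). FT against CT differed by -0.45 (exact p = 0.317), and after subtraction the sign turned, to 0.93.

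miR-486 over miR-451 was -3.68, -3.29 and -3.67 in CS2 to CS4, and -3.35, -3.90, -1.74 and -3.84 in TS1 to TS4, so TS1 lay within the control range, TS2 and TS4 a little below it, and TS3 above it. In tissue the ratio was -3.10 ± 0.83 (SD, n = 5) in CT, -1.93 ± 1.46 in FT and -1.92 ± 2.05 in M. FT2 at 0.32 and M1 at 0.83 held more miR-486 than miR-451, and M4 at -0.37 nearly as much, while M6 at -3.97 was close to the plasma values. The differences from CT, 1.17 for FT and 1.18 for M, were smaller than the spread (exact p = 0.19 and 0.302).

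miR-486 over miR-144 compares the 2 members that are near background in CT, where it was -0.15 ± 0.94 (SD, n = 5). FT samples averaged 1.47 ± 1.36 (SD, n = 5), and M samples 2.45 ± 1.49 (SD, n = 5). M against CT differed by 2.60 (exact p = 0.00794, the smallest possible, adjusted p = 0.125), and FT against CT by 1.62 (exact p = 0.0317, adjusted p = 0.169). In plasma it was -0.67, 0.02 and -0.52 in CS and 3.17, 0.06, 5.83 and -0.62 in TS1 to TS4, again with TS1 and TS3 apart.

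**Figure D3:**
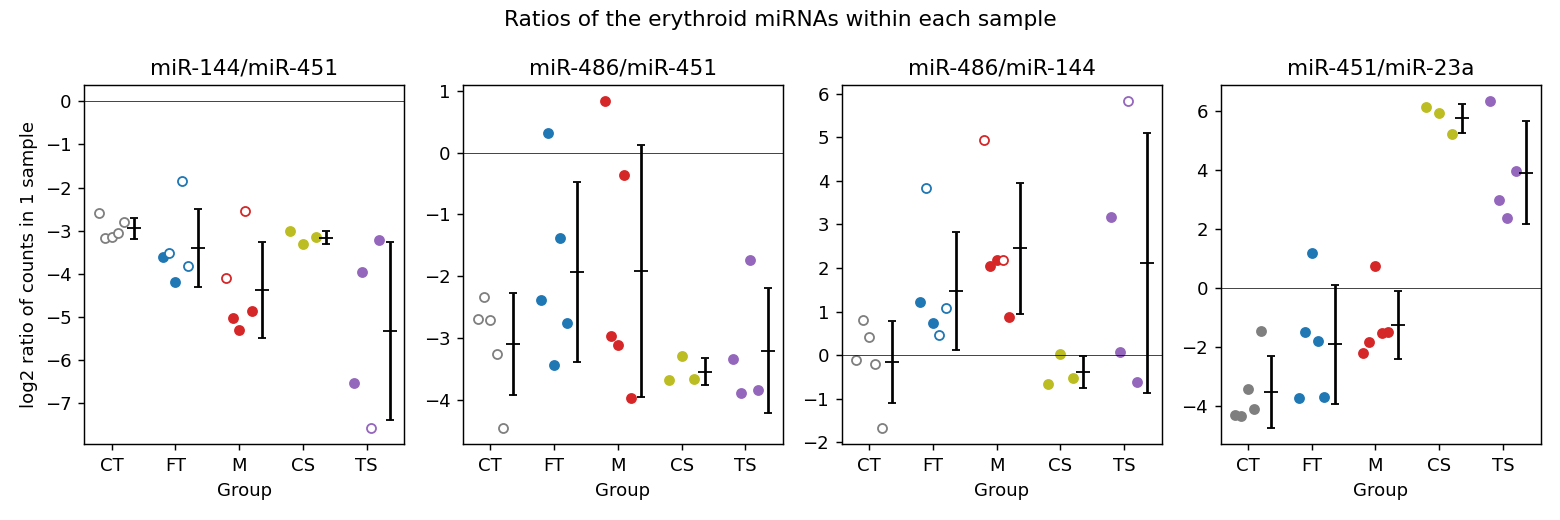
log2 ratios of counts within each sample (y axis) by group (x axis), for the 3 pairs of members and for miR-451 over miR-23a, with open circles where at least 1 miRNA of the pair was not above detection and black bars for the group mean and SD. For miR-144 over miR-451 the 3 CS samples sit between -3.32 and -3.01, and TS1 and TS3 sit at -6.52 and -7.57.

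miR-451 over miR-23a is used as a measure of hemolysis in plasma, because miR-23a is low in red cells. Its log2 value was 6.13, 5.92 and 5.20 in CS2, CS3 and CS4 and 6.33, 2.99, 2.38 and 3.96 in TS1 to TS4. TS1 was thus the highest of the 7 and the other 3 TS samples lay below all CS samples. The means were 3.91 ± 1.74 (SD, n = 4) in TS and 5.75 ± 0.49 (SD, n = 3) in CS, a difference of -1.84 (exact permutation p = 0.171, adjusted p = 0.4). The normalized count of miR-23a was 1151 ± 820.8 (SD, n = 4) in TS and 366.6 ± 65.5 (SD, n = 3) in CS. Its log2 fold change was 1.65 ± 0.84 (SE, edgeR adjusted p = 0.542), against -0.16 for miR-451. The part of miR-23a in the lower index was not tested. CS2 and CS3, with index values near 6, were also the samples in which probes other than mouse miRNAs took 73.2% and 84.5% of the counts. The 2 samples with a low miR-144 over miR-451 ratio lay at opposite ends of this index, with TS1 highest and TS3 lowest. In tissue, where miR-23a is abundant, the index was between -4.33 and 1.18, and FT3 and M3 alone were above 0.

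The 7 mice with both samples allow tube and plasma to be compared within a mouse. miR-486 over miR-451 was lower in plasma than in the tube in 7 of 7 mice, by a mean of -1.13 (exact sign-flip p = 0.0156, the smallest that 7 pairs allow, adjusted p = 0.125). The difference ran from -3.67 in the mouse of FT2 to -0.36 in the mouse of FT4, and in control mice it was -1.33, -0.57 and -0.40. In control tubes miR-486 was not above detection, so those 3 values are bounded by background, and after subtraction of the negative controls the mean difference was -0.29.

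miR-144 over miR-451 differed little between tube and plasma in the 3 control mice, by 0.15, -0.18 and -0.09. In the induced mice it differed by -2.999 for FT2 and TS1, 0.21 for FT3 and TS2, -5.71 for FT4 and TS3, and 0.60 for FT5 and TS4. The mean over 7 mice was -1.15 (exact sign-flip p = 0.406), and it was 0.64 after subtraction of the negative controls. In all of these tubes but FT3 miR-144 was not above detection, so their ratios are bounded by background, also in the control mice. miR-486 over miR-144 had a mean difference of 0.02 (exact sign-flip p = 1), in which the mouse of FT4 and TS3, at 5.36, stood against the others, which were all negative.

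**Figure D4:**
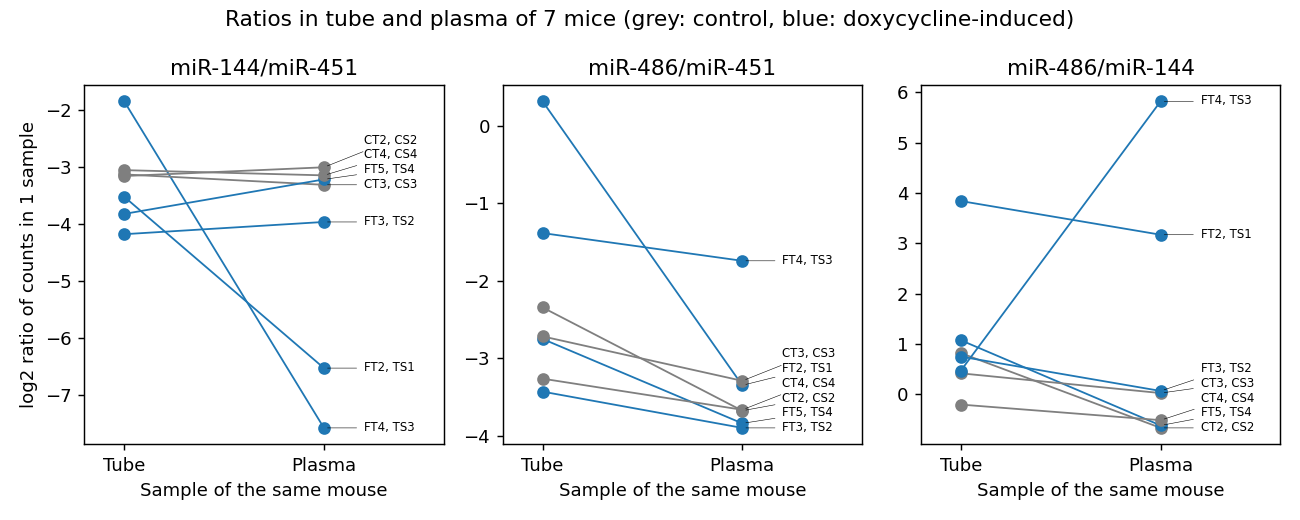
log2 ratios of counts (y axis) in the tube and in the plasma of the same mouse (x axis), 1 line for each of 7 mice, grey for control and blue for doxycycline-induced. For miR-486 over miR-451 all 7 lines fall, and for miR-144 over miR-451 the lines of FT2 with TS1 and FT4 with TS3 fall the most, with differences of -2.999 and -5.71.

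Whether induction shifted plasma differently from the tube was tested as the plasma minus tube difference of log2 normalized counts in 4 induced against 3 control mice. The difference was -1.73 for miR-451 (exact permutation p = 0.314), -3.67 for miR-144 (exact p = 0.0857) and -2.36 for miR-486 (exact p = 0.0571). The 3 ratios differed by -1.93, -0.63 and 1.31, with exact p-values of 0.429, 0.829 and 0.857. The normalized counts carry the scaling, under which the median log2 fold change of all miRNAs was -0.89 in TS against CS and 0.15 in FT against CT. After adjustment over these 6 tests the lowest adjusted p was 0.257.

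The members were then set against each other across samples, as 6 relations adjusted together. In the 15 tissue samples log2 normalized miR-451 and miR-144 had Pearson r = 0.776 (permutation p = 0.00103, adjusted p = 0.00618) and Spearman rho = 0.639 (permutation p = 0.0122, adjusted p = 0.0732). Without FT3 and M3 r was 0.607, and with each group centred on its mean it was 0.812. In tissue miR-144 was above detection in only 0 of 5 CT, 2 of 5 FT and 3 of 5 M samples. Its other values are background counts under the scaling that miR-451 shares, which limits its relations in tissue. With miR-486 the r of miR-451 was 0.523 (permutation p = 0.0466, adjusted p = 0.0932) and rho was 0.582 (permutation p = 0.0249, adjusted p = 0.0748). This r was 0.284 without FT3 and M3, and 0.221 with each group centred on its mean. The relation thus rested on those samples and on differences between the groups. miR-144 with miR-486 had r = 0.280 (permutation p = 0.309, adjusted p = 0.464) and rho = 0.193 (permutation p = 0.489, adjusted p = 0.498).

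In the 7 plasma samples miR-451 with miR-486 had r = 0.818 (exact permutation p = 0.0244, adjusted p = 0.0732) and rho = 0.607 (exact p = 0.167, adjusted p = 0.333), and r = 0.355 without TS1 and TS4, so it rested on those samples. miR-451 with miR-144 had r = 0.389 (exact permutation p = 0.405, adjusted p = 0.485) and rho = 0.357 (exact p = 0.444, adjusted p = 0.498). Without TS1 and TS4 its r was 0.770. miR-144 with miR-486 had r = -0.12 (exact permutation p = 0.794, adjusted p = 0.794) and rho = -0.321 (exact p = 0.498, adjusted p = 0.498). Whether tissue and plasma differ in these relations was not tested.

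The miRNAs most like each member were ranked by Pearson r of log2 normalized counts, among those with a mean count of at least 50, as a description. In the 15 tissue samples miR-451 was followed by miR-15a (r = 0.774), miR-335-5p (0.697) and miR-19a (0.686), among 140 miRNAs. miR-144, not above detection in most of these samples, was closest to miR-451 (0.776) of all 141, ahead of miR-19a (0.543) and miR-140 (0.513). miR-486 had other neighbors: miR-2134 (0.860), miR-2132 (0.848) and miR-1224 (0.847). miR-1224 counted 23 to 78 in CT, 29 to 1082 in FT, and 5041, 531, 1479, 1122 and 1099 in M1, M2, M3, M4 and M6. These 3 rose in M against CT, by log2 fold changes of 8.17 for miR-2134, 5.45 for miR-2132 and 6.31 for miR-1224 (edgeR adjusted p = 0.000181, 0.000803 and 0.000107). The samples share their scaling, and the geometric means of abundant miRNAs were 173.8, 499.4, 168.8, 192.4 and 681.5 in M1, M2, M3, M4 and M6, and 198.5 in CT5, where miR-1224 counted 23.

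In the 7 plasma samples miR-451 was closest to miR-450b-5p (r = 0.965), miR-486 (0.818) and miR-16 (0.768), among 94 miRNAs. miR-144 was closest to miR-15a (0.972), miR-15b (0.954) and miR-142-3p (0.896). In TS3, where miR-144 counted 28, miR-15a counted 38, miR-15b 38 and miR-142-3p 35, and miR-16 counted 6311. There miR-144 and miR-142-3p were not above detection, and miR-15a and miR-15b were only just above it. The r values of miR-144 with miR-15a, miR-15b and miR-142-3p thus include a sample at or near background. How far they rest on TS3 was not tested. miR-486 was closest to miR-106b (0.949), the shared probe of miR-106a and miR-17 (0.919) and miR-450b-5p (0.914). miR-15b and miR-142-3p were also lower in TS than in CS, by log2 fold changes of -1.68 and -1.61 that did not pass (edgeR adjusted p = 0.542 for both).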

How the data were processed

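The deposited values are barcode counts, made by the authors with NanoString's nCounter mouse miRNA panel, for 626 probes, 566 of them mouse miRNAs. Input was 100 ng of RNA per tissue and 10 ng per plasma sample. The number of columns with no sample was 0, and 0 were identical. M5 and CS1 were not analysed here. The authors' normalization in nSolver was repeated, without background subtraction, by scaling to the geometric mean of the top 100 miRNAs in tissue (which hold 1 of the members) and the top 30 in plasma (which hold all 3). The paper's own tables of fold changes and p-values were not used.

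Counts of all 566 miRNAs were tested by the quasi-likelihood test of edgeR 4.0.16 (R 4.3.3), in which these geometric means stood in for library sizes, and p-values were adjusted by Benjamini-Hochberg (threshold 0.05). Single values and ratios of counts were tested with exact permutation tests, and correlations in tissue with 100000 permutations, in Python 3.11.15 with scipy 1.17.1. The tests were checked on simulated data. Sequences are from RefSeq (GRCm38.p6), which matched 2 of the 3 members.

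The members, lists and tests were chosen with earlier results of these data known. Named are the 3 members, miR-23a, the red cell and maturation lists, marker miRNAs past the threshold, and the 3 miRNAs most alike to each member in tissue and in plasma. Others are named as chosen after their values were seen. Alternatives were TMM scaling, DESeq2 1.42.0, a minimum mean count of 20, the 3 tissue groups fitted together, sample numbers as a replicate block, the methods' t-test (unequal variances, on log2 values), subtraction of the negative controls, a pseudocount of 10 in ratios, and each sample left out. A scaling set without the members was added after seeing the data. Within each comparison of 2 groups, sample numbers were not taken as pairs, while tube and plasma of 1 mouse were paired through the paper's sample table. Errors are the spread between samples, and counts below detection give upper bounds. Other alleles of these mice are not reported here.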

Additional observations from a re-analysis of the deposited data

Results flagged for a closer look

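Of 25 sets of values, each 1 measure in 1 group of 4 or 5 samples, 5 had a sample far from the others by Dixon's criterion, which chance gives in about 1 in 20. In CT the normalized count of miR-451 was 566.9 in CT5, and that of miR-144 was 82.0 in CT5, both above the other 4 controls. CT5 had 71260 counts on miRNAs, the fewest of the controls, and its miR-144 count of 35 was not above detection.

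In FT the normalized count of miR-451 was 2194 in FT3. The log2 ratio of miR-144 over miR-451 was -1.85 in FT4, where miR-144 was not above detection. The log2 ratio of miR-486 over miR-144 was 3.84 in FT2, where miR-144 counted 6.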

How the results depend on the processing

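miR-486 in M against CT passed under every alternative and with each sample left out. In FT against CT its log2 fold change passed at 2.03 with TMM, 2.12 with DESeq2 and 4.34 after subtraction of the negative controls, and lay between 2.01 and 2.60 with a sample left out, where it passed without FT1, FT3 or FT5. miR-451 in M against CT passed at 2.39 with TMM, 2.47 with DESeq2, 2.19 with a minimum mean count of 20, 2.29 after subtraction and 2.21 with a scaling set without the members, and ranged from 1.54 (without M3) to 2.88 (without CT5), passing without CT5, M1 or M4. The cause of these changes was not tested.

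The count of miRNAs called moved. In FT against CT (1) it was 2 with TMM, 9 with DESeq2, 0 with a minimum mean count of 20, 0 with a replicate block, 0 with the methods' t-test and 6 after subtraction, and 0 (without CT2 or CT3) to 12 (without FT3) with a sample left out, with 2 without FT1 and 10 without FT5. In M against CT (82) it was 151 with TMM, 184 with DESeq2, 52 with the 3 groups together, 32 with the methods' t-test, 133 after subtraction and 50 (without CT4, and 51 or 52 without CT1 or CT3) to 101 (without M6). In M against FT (9) it was 39 with DESeq2, 23 with the 3 groups together, 2 with a replicate block, 0 with the methods' t-test, and 4 (without FT3) to 33 (without FT2), with 5 without FT1 or FT4, 18 without M4 and 15 without M6. In TS against CS (0) it was 12 with DESeq2 and 90 with a replicate block.

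In plasma the replicate block gave -2.72 for miR-144 (adjusted p = 0.0251) and -0.77 for miR-486. Sample numbers did not pair the samples, as 16 same-numbered pairs correlated at -0.411 to 0.322. miR-451 in TS against CS turned to 0.68 with TMM and 0.76 with DESeq2, and ranged from -1.13 (without TS1) to 0.16 (without TS4). miR-486 there turned to -0.20 with the methods' t-test and ranged from -0.37 (without TS1) to 0.62 (without TS4). miR-144 in M against FT turned to 0.070 with the methods' t-test and ranged from -0.55 to 0.55 (without FT3). In FT against CT, with a sample left out, miR-451 ranged from -0.17 (without FT3) to 2.11 and miR-144 from -0.23 (without FT3) to 1.32.

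After subtraction of the negative controls miR-144 over miR-451 turned to 0.93 in FT against CT and to 0.64 in plasma against tube, and miR-486 over miR-144 in plasma against tube turned to -0.93. That last value ranged from -0.87 (without the mouse of FT4) to 0.30. miR-486 over miR-451 in M against FT was -0.046 with a pseudocount of 10 and ranged from -0.68 to 0.57, and in TS against CS from -0.15 (without TS3) to 0.57. Plasma minus tube in induced against control mice ranged from -0.97 to 0.13 (without FT2) for miR-486 over miR-451 and from -0.29 (without FT4) to 2.06 for miR-486 over miR-144. The r of miR-451 with miR-486 ranged from 0.416 to 0.641 (without M1) in tissue, where it passed without M1 or FT2, and from 0.639 to 0.991 (without TS3) in plasma, where it passed without TS3. The r of miR-144 with miR-486 in plasma ranged from -0.305 to 0.312 (without TS3). Other results kept their direction and their side of the threshold. Counts of miR-144 and miR-486 in control tubes, at background, limit every tissue ratio with CT.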

Other observations

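miR-15b, which a cluster with miR-16 also makes, was low in the same mice in tube and in plasma. It was chosen after its values were seen, and no test was made. The log2 ratio of miR-15b over miR-16 was -5.23 in FT2 and -6.17 in TS1 of the same mouse, and -6.31 in FT4 and -7.38 in TS3 of the same mouse. In the other 2 such mice it was -3.73 in FT3 and -4.07 in TS2, and -2.30 in FT5 and -2.73 in TS4. In the 3 control mice it was -2.66, -3.75 and -2.01 in the tube and -3.24, -3.40 and -2.34 in plasma. It was also low in the tumors M1 and M4, at -6.92 and -5.21. In FT2, M1 and M4 miR-15b counted 14, 19 and 21 and was not above detection, so these 3 ratios are upper bounds. In FT4 and TS3 miR-15b was only just above detection, so background also enters their ratios.

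miR-15a over miR-16 did not follow miR-15b over miR-16 in the tube, at -2.10 in FT2 and -3.12 in FT4 against -3.18 to -2.43 in the control mice, and was -5.07 in TS1 and -7.38 in TS3. In TS3 miR-15a, too, was only just above detection. TS1 and TS3 are the plasma samples in which miR-144 over miR-451 was lowest.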
